A study of Mus musculus with 3 samples.

Results

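The walls of the pulmonary veins in mice hold a sleeve of heart muscle cells that runs from the left atrium into the lung, so that a lung sample contains RNA of cardiomyocytes. A group of 9 genes by which such cells can be recognised was followed here: the sarcomere genes Actc1, Tnnt2, Tnni3, Myh6, Mybpc3, Myl7 and Myl4, the calcium pump regulator gene Sln and the hormone gene Nppa. They were chosen by symbol, and all 9 were found among the 23183 genes with a value in each library. The libraries were made from homogenised lungs of female mice of the BALB/c strain, with 1 library per group and 3 in all. The OVA+PM10 library came from mice that received PM10 (a certified particulate reference material) through the nose 4 times over 2 weeks and that were also sensitised to ovalbumin (OVA, an egg-white allergen) with aluminium hydroxide and challenged through the nose on days 21, 22 and 23. The particles were given in saline, and lungs were taken 2 days after the last challenge. The PM10 library came from mice given the particles alone. The control library came from the control mice, for which the labels name no vehicle. The labels give the age as 10 weeks in one place and as 5 to 6 weeks in another, name particle doses of 100 and 200 µg without saying which was sequenced, and assign 5 mice to a group without saying how many of them a library holds. Mice given OVA alone were not analysed here, so what OVA and what the particles contributed to the OVA+PM10 library cannot be told apart.

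The contractile unit of these cells, the sarcomere, slides thin filaments of actin along thick filaments of myosin. Troponin on the thin filament makes the sliding depend on calcium, and the calcium is pumped back into the sarcoplasmic reticulum by an ATPase that small membrane proteins hold in check. Heart chambers use different versions of several parts: atrial cells, and the cells of the pulmonary vein sleeve with them, carry the light chains MYL7 and MYL4 and the pump inhibitor sarcolipin, and store atrial natriuretic peptide, whereas ventricular cells carry MYL2 and MYL3.

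Levels are given as FPKM, which divides a gene's fragments by its transcript length and by the mapped reads of the library, a unit inferred here from the deposited values. With 1 library per group there was no spread between replicates, no test could be made, and every ratio compares libraries and not treatments. Ratios are log2 ratios of FPKM + 1. A gene is called higher or lower when it differed at least 2-fold on that scale and reached at least 1 FPKM in the higher of the compared libraries, which is a rule of size and not a test. No read totals are given, but from the lowest values a single read in a transcript of 1 kilobase was worth about 0.0661 FPKM after OVA+PM10, 0.0765 FPKM after PM10 and 0.0502 FPKM in control lung, so that the control library was the deepest and the PM10 library the shallowest. The summed FPKM of all genes was 855740 after OVA+PM10, 1293200 after PM10 and 546320 in control lung. The ratios of all genes followed transcript length. With the genes in 4 equal bins by their longest annotated transcript, the median log2 ratio was 0.41 in the bin of shortest genes and -0.30 in the bin of longest genes for OVA+PM10 over control, and 0.70 and -0.57 in these bins for PM10 over control. Actc1, Tnni3, Myl7, Sln and Nppa were in the bin of shortest genes and Myh6 was in that of the longest. Tnnt2 and Myl4 fell in bin 3 of 4 by their longest transcript of any type, although their longest coding transcripts have 1200 and 943 bases. In such homogenates, fewer cardiomyocytes and less RNA per cardiomyocyte cannot be told apart.

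The promoter windows of 3 of the genes are shown because these genes stand for different patterns over the libraries. Nppa was high in control lung alone, whereas Myl7 and Actc1 were low after PM10 and within 2-fold of control after OVA+PM10. Each window is the 250 bases before the annotated start (RefSeq, GRCm38.p6, C57BL/6J reference and not BALB/c), written 5′ to 3′ on the gene's strand. It covers chr4:148000472-148000721 (plus strand) for Nppa, chr11:5898783-5899032 (minus strand) for Myl7 and chr2:114052876-114053125 (minus strand) for Actc1. The gene spans given below come from GENCODE, in which Actc1 reaches to 114053548. Its window therefore lies before the RefSeq start but inside the GENCODE span. Capitals mark matches on either strand to 5 motifs. These are the TATA box in the form TATAAA, the core GATAA read by factors of that family, the core AAGTG read by NKX2 factors, the CArG box read by serum response factor, and the MEF2 box, which was searched as CTA followed after any 4 bases by TAG.
Nppa: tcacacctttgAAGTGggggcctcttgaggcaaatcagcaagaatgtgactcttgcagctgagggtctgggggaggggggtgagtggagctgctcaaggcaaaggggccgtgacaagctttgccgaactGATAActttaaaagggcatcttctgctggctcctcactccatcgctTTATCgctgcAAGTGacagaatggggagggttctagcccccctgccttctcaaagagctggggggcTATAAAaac
Myl7: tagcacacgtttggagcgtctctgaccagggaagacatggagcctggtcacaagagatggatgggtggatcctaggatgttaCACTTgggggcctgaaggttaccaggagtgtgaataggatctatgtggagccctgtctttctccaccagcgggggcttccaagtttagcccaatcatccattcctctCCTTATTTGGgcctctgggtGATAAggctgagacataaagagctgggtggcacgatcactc
Actc1: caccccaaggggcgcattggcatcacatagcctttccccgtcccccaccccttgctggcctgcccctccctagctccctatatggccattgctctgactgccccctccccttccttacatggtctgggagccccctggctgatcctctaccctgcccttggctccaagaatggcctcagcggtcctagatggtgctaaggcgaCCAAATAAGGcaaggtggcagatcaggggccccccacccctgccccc
The Nppa window held 1 TATA box, 2 GATA cores and 2 NKX2 cores. The Myl7 window held 1 CArG box starting 61 bases before the annotated start, and 1 GATA core and 1 NKX2 core. The Actc1 window held 1 match, a CArG box starting 47 bases before the annotated start. Among 32851 windows of this length over all genes, 12.4% held the TATA box, 22.6% the GATA core, 40.7% the NKX2 core, 1.47% a CArG box and 3.2% a MEF2 box, with overlapping matches allowed. These are letter matches and not measured binding. Of the other members, Tnnt2, Tnni3, Myh6, Mybpc3 and Myl4 had a window and none of them held a CArG box. Tnni3 had the same calls against control as Myl7 and Actc1 on the deposited FPKM, yet its window held none of the 5 motifs. Mybpc3 held 1 MEF2 box. Whether any motif bears on the levels was not tested.

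Of the heart's own regulatory light chains, the atrial one was far above the ventricular one in all 3 libraries. Myl7, the atrial regulatory light chain, had 117 FPKM after OVA+PM10, 42.1 FPKM after PM10 and 127 FPKM in control lung. Its ventricular counterpart Myl2 had 0.282, 0.641 and 0.104 FPKM in the same libraries, or about 3.79, 7.45 and 1.84 reads at its transcript length of 889 bases, too few for a readable fold between the genes. Regulatory light chains of other muscles were also present: Mylpf, that of fast skeletal muscle, exceeded Myl7 in control lung with 676 FPKM. Myl9, that of smooth muscle, had 216 FPKM after OVA+PM10, 92.5 FPKM after PM10 and 117 FPKM in control lung. Of 8 ventricle-enriched genes, Irx4 and Kcne1 were listed at 0 in all 3 libraries, Myl2 and Nppb stayed below 1 FPKM, and Hey2, Myh7 and Lbh were above it in each. Lbh, a regulator of transcription, was the highest of them after either exposure, with 57.1 FPKM after OVA+PM10, 37.5 FPKM after PM10 and 62.6 FPKM in control lung. The single gene of this list lower after each exposure was Myl3, which is described with the counterparts; with equal summed FPKM 2 were lower after each.

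The thin filament genes were well expressed in all 3 libraries and were lowest after PM10. Actc1, the cardiac α-actin gene (chromosome 2, 114047282 to 114053548, mm10, minus strand), had 60.4 FPKM after OVA+PM10, 11.04 FPKM after PM10 and 48.4 FPKM in control lung. The PM10 library stood apart from both others, by a log2 ratio of -2.04 to the control library, while the OVA+PM10 library lay within 2-fold of the control library (0.31). On a scale with the same summed FPKM in every library the ratio of OVA+PM10 to control was -0.32, so its sign depends on the scaling. Tnnt2, cardiac troponin T, which ties the troponin complex to tropomyosin (chromosome 1, 135836354 to 135852260, plus strand), had 60.6, 40.2 and 65.8 FPKM after OVA+PM10, after PM10 and in control lung. It stayed within 2-fold in all 3 comparisons, but with equal summed FPKM its log2 ratio was -1.92 for PM10 over control and 1.16 for OVA+PM10 over PM10. Tnni3, cardiac troponin I, the inhibitory subunit (chromosome 7, 4518305 to 4524229, minus strand), had 34.9, 19.1 and 55.8 FPKM in the same order. Its log2 ratio to the control library was -0.66 for OVA+PM10 and -1.50 for PM10, so that it was called lower after PM10 alone. For OVA+PM10 over PM10 the log2 ratio of Tnni3 was 0.83. With equal summed FPKM its log2 ratio was -1.30 for OVA+PM10 over control and 1.40 for OVA+PM10 over PM10.

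The thick filament genes fell into different patterns. Myl7 (chromosome 11, 5896637 to 5898782, minus strand) was nearly level between the OVA+PM10 and control libraries, with a log2 ratio of -0.12, and lower after PM10, with -1.58. Myl4, the atrial essential light chain, which steadies the myosin lever arm (chromosome 11, 104550663 to 104595753, plus strand), had 81.1 FPKM after OVA+PM10, 55.6 FPKM after PM10 and 93.7 FPKM in control lung. It stayed within 2-fold as well, with log2 ratios to the control library of -0.21 (OVA+PM10) and -0.74 (PM10), but with equal summed FPKM the PM10 ratio was -1.97 and that of OVA+PM10 over PM10 was 1.12. Myh6, the fast cardiac myosin heavy chain (chromosome 14, 54941921 to 54966927, minus strand), had 5.35, 7.74 and 29.2 FPKM after OVA+PM10, after PM10 and in control lung. Unlike the light chains it was low in both exposed libraries, with log2 ratios to the control library of -2.25 and -1.79. Of the 50-base windows in its longest coding transcript, 22.6% also occur in Myh7, its neighbour and the slow myosin heavy chain, so how reads were divided between them can affect its value. None of the 50-base windows of the other 8 genes occurs in a transcript of another gene.

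Mybpc3, cardiac myosin-binding protein C, a brake on the thick filament (chromosome 2, 91118144 to 91136516, plus strand), was at the bottom of the group in every library or next to it. It had 0.416 FPKM after OVA+PM10, 0.310 FPKM after PM10 and 0.513 FPKM in control lung, or about 26.2, 16.9 and 42.6 reads at the length of its longest coding transcript, 4163 bases. It was detected in each library and did not reach 1 FPKM in any, so that it is the single member that passed the filter in none of the comparisons. Relative to Myl7 it stood at 0.0036 after OVA+PM10, 0.0074 after PM10 and 0.0040 in control lung.

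The genes outside the sarcomere differed most from control. Sln encodes sarcolipin, a small inhibitor of the sarcoplasmic reticulum calcium pump that atrial muscle and some skeletal muscles express (chromosome 9, 53850164 to 53854560, plus strand). It had 14.0 FPKM after OVA+PM10, 10.9 FPKM after PM10 and 203 FPKM in control lung, where it was the highest of the 9 genes. Both exposed libraries were far below the control library and close to each other, with log2 ratios of -3.77 (OVA+PM10 over control), -4.10 (PM10 over control) and 0.33 (OVA+PM10 over PM10). Nppa encodes the precursor of atrial natriuretic peptide, a hormone that lowers blood pressure and salt retention (chromosome 4, 148000722 to 148002079, plus strand). It had 0.192 FPKM after OVA+PM10, 0.329 FPKM after PM10 and 15.4 FPKM in control lung. At its transcript length of 865 bases these correspond to about 2.5 reads, 3.7 reads and 266 reads, so the exposed libraries were near the limit of detection and their difference from each other cannot be read. The log2 ratios to the control library were -3.78 for OVA+PM10 and -3.63 for PM10. They depend on the pseudocount, at -5.15 and -4.76 with 0.25 FPKM and -1.97 and -1.94 with 5 FPKM.

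**Figure D1:**
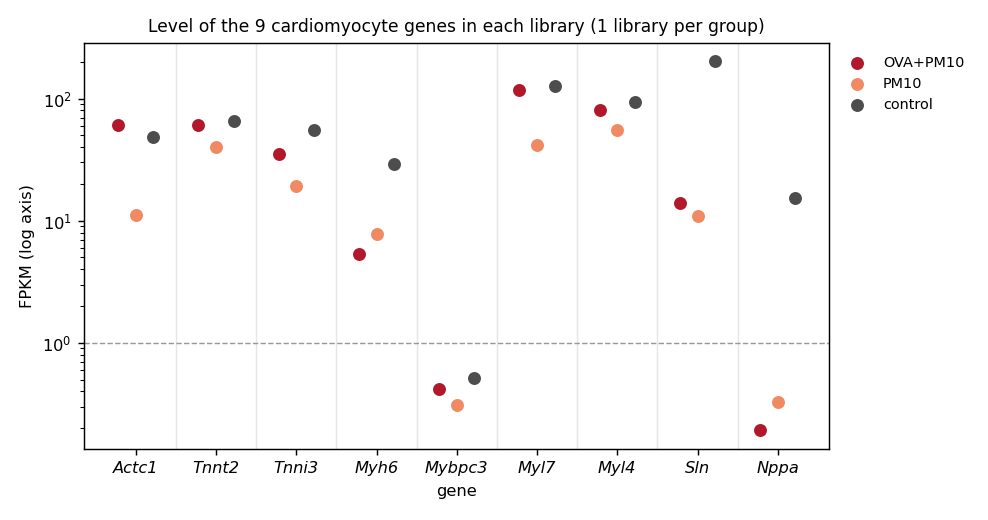
FPKM of the 9 genes on a log axis, with 1 point per library (red, OVA+PM10; orange, PM10; grey, control) and a dashed line at 1 FPKM. Actc1, Tnnt2, Myl7 and Myl4 have red and grey points close together, whereas Myh6, Sln and Nppa have both exposed libraries well below the control library, as Nppa at 0.192 and 0.329 against 15.4 FPKM.

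Counted together, 3 of the 8 members that passed the filter were lower after OVA+PM10 than in control lung (Myh6, Sln and Nppa) and 0 were higher. Over all 13877 genes tested in that comparison, 8.68% were lower, 9.95% higher and 18.6% either. The median log2 ratio over all 9 members was -0.21, against -0.0017 over all genes tested. In the PM10 library 6 of 8 were lower than in control lung (the same 3 with Actc1, Tnni3 and Myl7) and 0 were higher, where 13.9% of 13693 genes were lower, 13.6% higher and 27.6% either. The median of the members was -1.58, against 0.02 for all genes tested. These comparisons share the control library, so their values stand side by side and are not independent. Of the 7 members that passed the filter in the comparison of OVA+PM10 with PM10, 2 were higher after OVA+PM10, namely Actc1 (log2 ratio 2.35) and Myl7 (1.45), and 0 were lower. Over 13556 genes, 11.8% were higher, 9.0% lower and 20.8% either, and the median was 0.53 for the members and -0.03 for all genes.

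How many members passed the size rule depended on the scaling. On the scale with the same summed FPKM, which moved the median gene to -0.57 (OVA+PM10 over control), -1.02 (PM10 over control) and 0.48 (OVA+PM10 over PM10), 4 members were lower after OVA+PM10 and 8 after PM10 than in control lung, and 5 were higher after OVA+PM10 than after PM10. Over all genes tested on that scale, 3459 of 14360 were lower after OVA+PM10 and 7226 of 14120 after PM10 than in control lung. Higher after OVA+PM10 than after PM10 were 3211 of 13400. The counts with equal sums in the other gene lists also stand beside these large numbers. On the deposited FPKM the control library was highest in 8 of the 9 genes, with Actc1 as the exception, where this holds for 35.1% of 14145 genes with at least 1 FPKM in any library. With equal sums it was highest in all 9, and in 74.6% of 14447 genes. Summed over the 9 genes, the level was 374 FPKM after OVA+PM10, 187 FPKM after PM10 and 639 FPKM in control lung. As a part of all FPKM this was 0.0437%, 0.0145% and 0.117% in the same order.

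**Figure D2:**
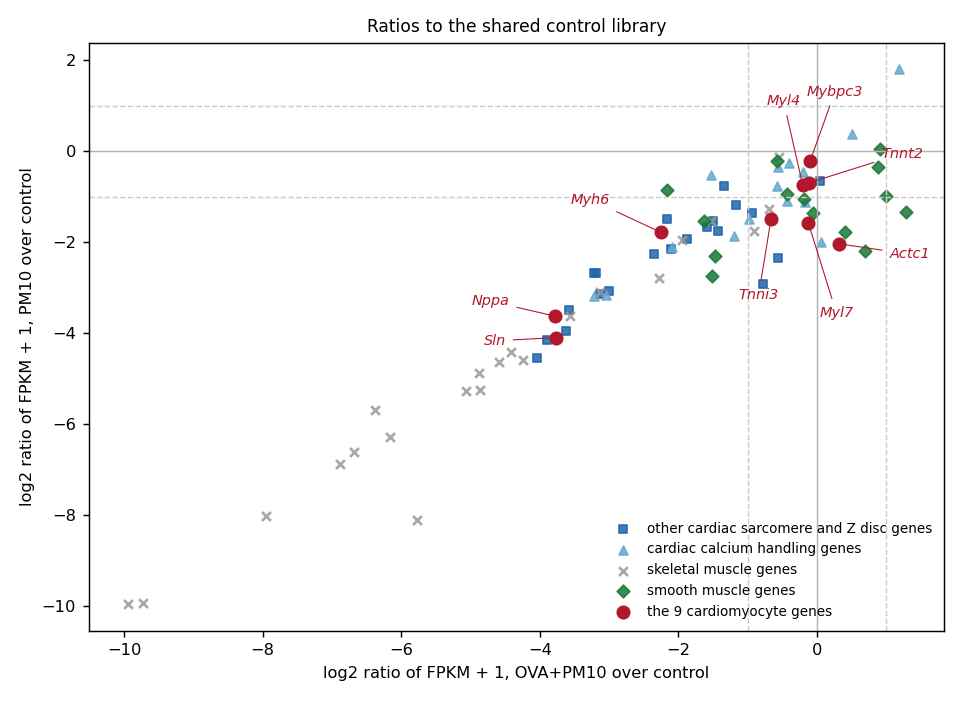
Log2 ratio of FPKM + 1 of PM10 over control (vertical) against OVA+PM10 over control (horizontal) for the 9 genes (red circles, labelled) and for lists of other muscle genes, where both axes share the control library and dashed lines mark 2-fold. Sln (-3.77, -4.10) and Nppa (-3.78, -3.63) lie at the lower left among skeletal muscle and Z disc genes, and Actc1 (0.31, -2.04) lies at the right among smooth muscle genes.

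Ratios between genes of the same library do not depend on a scaling factor per library, but they do depend on the trend over transcript length, in which Myl7 lies among the shortest genes. Relative to Myl7, Sln stood at 0.1196 after OVA+PM10, 0.259 after PM10 and 1.59 in control lung. Nppa relative to Myl7 stood at 0.0016, 0.0078 and 0.121 in the same order. Both were thus lower against Myl7 in each exposed library than in control lung, also with the length trend removed. The log2 ratio to control was then -3.32 (OVA+PM10) and -1.98 (PM10) for Sln over Myl7 and -3.52 and -1.96 for Nppa over Myl7. Values with the trend removed rest on FPKM + 1, whereas the other ratios to Myl7 are of FPKM alone. The added 1 FPKM shrinks the ratios of Nppa in particular, so sizes on the 2 scales cannot be compared to read an effect of length. Myh6 relative to Myl7 was 0.0458 after OVA+PM10, 0.184 after PM10 and 0.229 in control lung, lowest after OVA+PM10. With the length trend removed, Myh6 over Myl7 had log2 ratios to control of -1.03 for OVA+PM10 and 1.66 for PM10, so the sign of the PM10 difference depends on it. Tnnt2 and Myl4 relative to Myl7 were at 0.519 and 0.694 after OVA+PM10, 0.954 and 1.32 after PM10 and 0.517 and 0.736 in control lung. Both were higher against Myl7 after PM10 than in control lung, and nearly the same after OVA+PM10 as in control lung. With the trend removed, the log2 ratios to control were 2.20 and 2.15 (PM10) and 0.76 and 0.67 (OVA+PM10). These 4 values cannot be read, because the trend was taken at the longest transcript of any type. The longest coding transcripts of Tnnt2 and Myl4 are much shorter, at 1200 and 943 bases, and the ratios at those lengths were not computed. Actc1 relative to Myl7 was at 0.517 after OVA+PM10, 0.262 after PM10 and 0.380 in control lung, and the lower value after PM10 turned with the trend removed (0.27 on the log2 scale).

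Expressed as shares of the summed level of the 9 genes, Sln made up 3.74% after OVA+PM10, 5.82% after PM10 and 31.7% in control lung. Myl7 and Myl4 made up 31.3% and 21.7% after OVA+PM10, 22.5% and 29.7% after PM10 and 19.9% and 14.7% in control lung. Shares in a sum depend on each other, and the large share of Sln in control lung lowers those of the other genes there. The FPKM of Myl7 and Myl4 was higher than in control lung after neither exposure. The order of the levels was accordingly headed by Myl7 after OVA+PM10, by Myl4 after PM10 and by Sln in control lung. With 1 library per group it is not known which neighbours in these orders differ beyond the spread between samples.

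**Figure D3:**
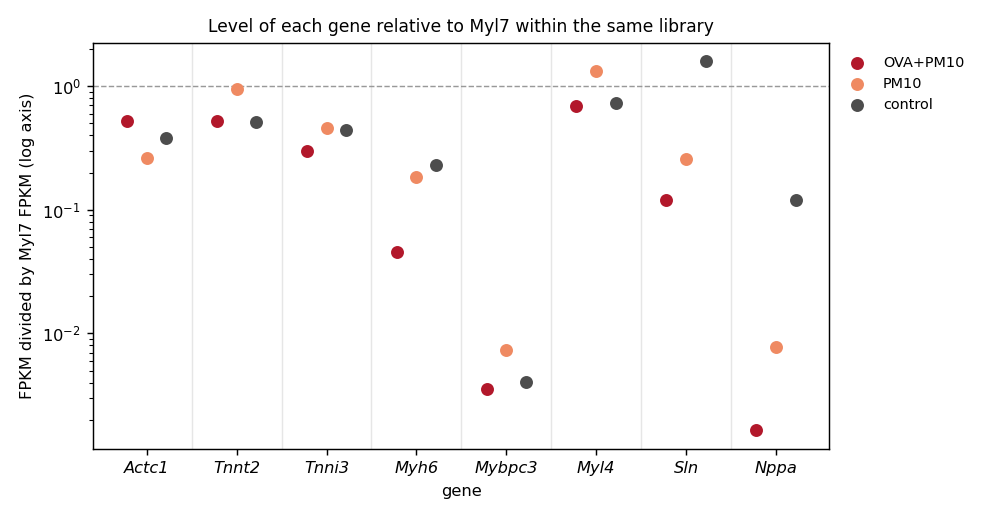
FPKM of 8 genes divided by the FPKM of Myl7 in the same library (log axis), with 1 point per library (red, OVA+PM10; orange, PM10; grey, control) and a dashed line at 1. Tnnt2 and Myl4 have red and grey points at nearly the same height (Tnnt2 0.519 and 0.517), and Sln and Nppa have the grey point far above both others.

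Several muscle genes have a counterpart in another muscle, and those of skeletal muscle were high in control lung. Acta1, skeletal α-actin, had 0.139 FPKM after OVA+PM10, was listed at 0 after PM10 and had 966 FPKM in control lung, where it was 20.0 times as high as Actc1. Tnnt3, fast skeletal troponin T, had 11.003, 1.381 and 654.8 FPKM in the same order, against 60.6, 40.2 and 65.8 FPKM for Tnnt2. Mybpc1, the slow skeletal myosin-binding protein C, was listed at 0 in both exposed libraries and had 20.3 FPKM in control lung, or 39.7 times Mybpc3. Myl3, the essential light chain of the ventricle that slow skeletal muscle also uses, had 3.79 FPKM after OVA+PM10, 0.888 FPKM after PM10 and 301 FPKM in control lung. Tnni1, slow skeletal troponin I, stayed low at 0.499 FPKM (OVA+PM10), 0 (PM10) and 1.42 FPKM (control), far below Tnni3. Myh7, the slow myosin heavy chain of ventricle and slow skeletal muscle, had 6.96 FPKM after OVA+PM10, 21.3 FPKM after PM10 and 13.3 FPKM in control lung, and exceeded Myh6 in both exposed libraries but not in control lung. Nppb, the brain-type natriuretic peptide gene, was below 1 FPKM in all 3 libraries.

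**Figure D4:**
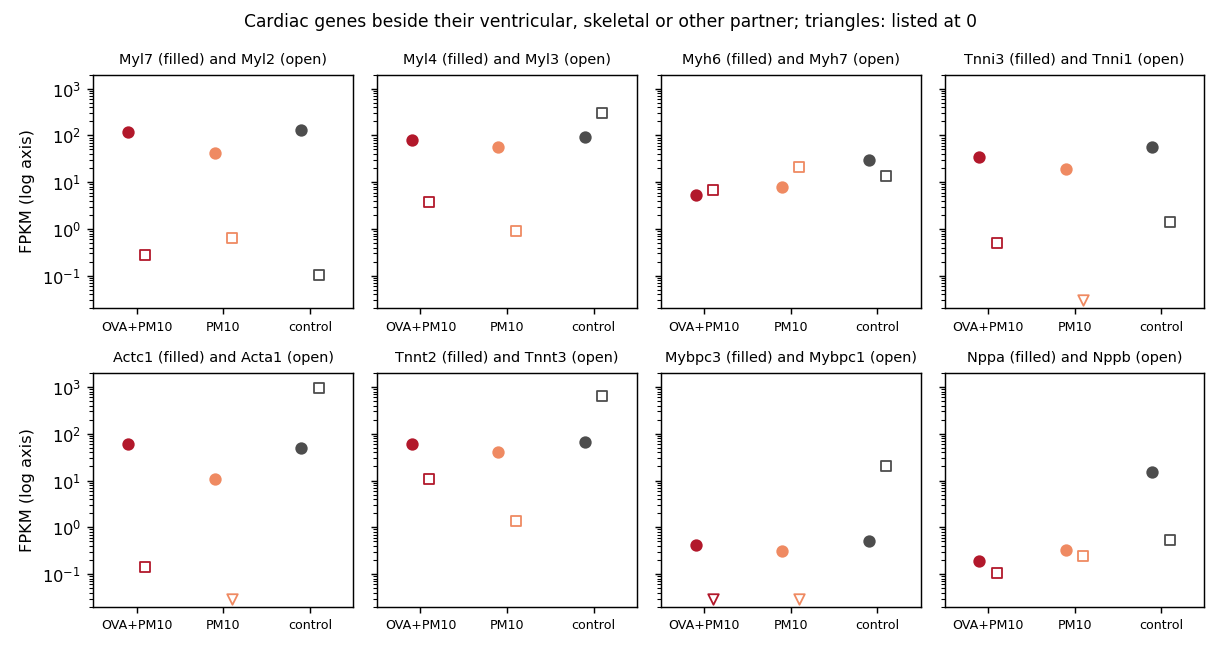
FPKM (log axis) of 8 member genes (filled circles) and their counterparts (open squares) after OVA+PM10, after PM10 and in control lung, with open triangles at the bottom for counterparts listed at 0. Myl2 lies far below Myl7 in every library, and Acta1, Tnnt3, Mybpc1 and Myl3 exceed their partners in control lung alone.

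Over a list of 22 skeletal muscle genes, 19 were lower after OVA+PM10 and 21 after PM10 than in control lung, and their summed level was 37.8 FPKM (OVA+PM10), 30.2 FPKM (PM10) and 4911 FPKM (control), with 7 genes listed at 0 in each exposed library. Tnnc2, fast skeletal troponin C, and Mylpf, a fast skeletal light chain, had 0 and 1.75 FPKM after OVA+PM10, 0 and 1.62 FPKM after PM10 and 989 and 676 FPKM in control lung. These skeletal muscle genes moved in the same direction as Sln, which skeletal muscle can express, and as Nppa and Myh6. Their part in the lower values of the 3 genes was not tested. Genes of stratified squamous epithelium moved with them, as all 12 were lower in both exposed libraries, with summed levels of 27.5 FPKM (OVA+PM10), 24.5 FPKM (PM10) and 4754 FPKM (control). Among them Krt13, a keratin of the oesophagus and mouth, had 0.107 FPKM after OVA+PM10, was listed at 0 after PM10 and had 2574 FPKM in control lung.

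Other genes of the heart muscle cell were lower in both exposed libraries, and many of them are shared with skeletal muscle. Of 21 further sarcomere and Z disc genes, 17 were lower after OVA+PM10 and 19 after PM10, with medians of -2.11 and -2.26 and 0 higher in either. Tcap, the cap of titin at the Z disc, had 17.9 FPKM after OVA+PM10, 14.2 FPKM after PM10 and 232 FPKM in control lung. Smpx, a small muscle protein, had 1.21, 0.563 and 35.4 FPKM, and Ldb3, a Z disc scaffold, 0.998, 0.674 and 28.8 FPKM in the same order. Tpm1, the tropomyosin of heart, skeletal and smooth muscle, had 187, 149 and 507 FPKM. Of 15 metabolic genes shared by heart and skeletal muscle, 11 were lower after OVA+PM10 and 8 after PM10 (all 15 after each with equal sums), with Mb, the oxygen store myoglobin, at 6.48, 1.88 and 411 FPKM. By contrast Tnnc1, the troponin C of cardiac and slow skeletal muscle, had 29.1 FPKM after OVA+PM10, 17.3 FPKM after PM10 and 28.1 FPKM in control lung, with both exposures within 2-fold of control. It was named after its values had been seen.

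Among 15 calcium handling genes, 5 were lower and 1 higher after OVA+PM10, and 8 lower and 1 higher after PM10, than in control lung (medians -0.57 and -1.09). With equal sums 7 were lower after OVA+PM10 and 13 after PM10, and 0 higher. Hrc, a calcium-binding protein of the sarcoplasmic reticulum, had 0.660 FPKM after OVA+PM10, 0.520 FPKM after PM10 and 12.7 FPKM in control lung. Trdn, triadin, which anchors the calcium store to the release channel, had 0.245, 0.284 and 10.6 FPKM, and Casq2, the cardiac calcium store protein, 0.585, 0.560 and 5.76 FPKM in the same order. The single higher gene was S100a1, a calcium sensor of muscle, at 399.7 FPKM after OVA+PM10, 611 FPKM after PM10 and 176 FPKM in control lung, and it passed the size rule neither with equal sums nor with the length trend removed. Atp2a2, the calcium pump that sarcolipin inhibits and that most cells use, was chosen after its values had been seen and had 83.3, 19.2 and 79.9 FPKM. On the deposited FPKM its order over the libraries was that of Actc1.

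Many channel and transcription factor genes of the heart were below 1 FPKM and did not pass the filter. Of 20 ion channel and conduction genes, 11 were below 1 FPKM after OVA+PM10, 11 after PM10 and 10 in control lung. The filter was passed by 10 of the 20 in each comparison with control. Of these 10, 5 were lower after OVA+PM10 and 2 after PM10, and 0 higher. With equal sums 9 and 8 of the list were lower and 0 higher. Gja1, the gap junction protein connexin 43 of many cell types, was the most abundant of the 20, at 22.7 FPKM (OVA+PM10), 18.9 FPKM (PM10) and 74.5 FPKM (control). Nkx2-5, the early cardiac transcription factor, was below 1 FPKM in all 3 libraries. Of 16 transcription factor genes, 4 were lower after OVA+PM10 and 2 after PM10 than in control lung (7 and 8 with equal sums), and 0 were higher in either. The filter was passed by 8 of the 16 in each comparison with control. The 2 lower after PM10 are thus 2 of 8, beside 13.9% of all genes that passed the filter.

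The natriuretic peptide pathway differed between the exposed libraries in its clearance receptor. Apart from Nppa, the pathway list held 10 measured genes, of which 5 were lower and 1 higher after OVA+PM10, and 3 lower and 0 higher after PM10, than in control lung. With equal sums 6 were lower after OVA+PM10 and 7 after PM10, and 0 higher. Npr3, the receptor that removes the peptides from the circulation, had 4.08 FPKM after OVA+PM10, 25.7 FPKM after PM10 and 23.9 FPKM in control lung. Corin, the protease that activates the atrial peptide's precursor, was the single higher gene, at 2.29 FPKM after OVA+PM10, 0.242 FPKM after PM10 and 0.478 FPKM in control lung, passed the size rule under neither exposure with equal sums, and was named after its values had been seen. Npr2, the receptor of C-type natriuretic peptide, had 5.198, 5.554 and 13.4 FPKM, and Pde5a, which breaks down the second messenger cyclic GMP, 11.1, 22.5 and 31.4 FPKM in the same order.

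Smooth muscle lies beside the cardiomyocyte sleeve in the walls of vessels and also in the airways, and its genes were set beside the members. Of 14 smooth muscle genes, 1 was higher and 4 were lower after OVA+PM10, and 0 were higher and 8 lower after PM10, than in control lung (medians -0.12 and -1.20). With equal sums 6 were lower after OVA+PM10 and all 14 after PM10 (medians -0.72 and -2.28), and 0 higher. Myh11, smooth muscle myosin, had 68.7 FPKM after OVA+PM10, 8.37 FPKM after PM10 and 42.1 FPKM in control lung. On the deposited FPKM its order, with OVA+PM10 highest and PM10 lowest, was that of Actc1 and was shared by 5 of the 14 smooth muscle genes and by 14.5% of 14145 genes. Whether smooth muscle RNA bears on the values of Actc1 was not tested. Of 6 globin genes of red cells, 3 were higher and 1 lower after OVA+PM10 and 4 higher and 1 lower after PM10 (1 and 2 higher with equal sums), with Hba-a1, an α-globin gene, at 6994 FPKM after OVA+PM10, 20709 FPKM after PM10 and 3338 FPKM in control lung. Of 12 endothelial genes, 7 were lower after OVA+PM10, and 2 were lower and 1 higher after PM10 (with equal sums 8 and 9 lower and 0 higher). They had a median log2 ratio of -1.10 for OVA+PM10 and -0.24 for PM10 over control (-1.74 and -1.36 with equal sums), with Cdh5, vascular cadherin, at 78.8 FPKM (OVA+PM10), 94.9 FPKM (PM10) and 265 FPKM (control).

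Markers of other tissues that could accompany the veins were described in the same way. Of 12 adipocyte genes, 6 were lower after OVA+PM10 and 9 after PM10 than in control lung, and Adipoq, the fat cell hormone adiponectin, had 4.44, 0.531 and 11.6 FPKM after OVA+PM10, after PM10 and in control lung. Of 9 measured mesothelium genes, which mark the lining of lung and pericardium, 6 were lower and 0 higher in each exposed library. Upk3b was listed at 0 after OVA+PM10 and had 0.149 FPKM after PM10 and 17.4 FPKM in control lung. Krt19, the most abundant of them, went the other way within 2-fold, at 274 FPKM (OVA+PM10), 193 FPKM (PM10) and 160 FPKM (control). With it, the summed level of the list was 302 FPKM (OVA+PM10), 219 FPKM (PM10) and 272 FPKM (control). All 9 measured cartilage genes were below 1 FPKM in all 3 libraries. Of 10 thymus genes, Rag1 and Rag2, which cut the antigen receptor genes, were listed at 0 in all 3 libraries. Against control, thymus genes passed the rule in 1 case, Ccl25, a chemokine of thymus and gut, at 2.02 FPKM after OVA+PM10, 2.565 FPKM after PM10 and 0.205 FPKM in control lung. Of 12 lung epithelial genes, 3 were higher and 1 lower after OVA+PM10 and 2 higher and 1 lower after PM10 (with equal sums 2 and 6, and 0 and 5). They had summed levels of 96090 FPKM after OVA+PM10, 115270 FPKM after PM10 and 70931 FPKM in control lung, so the labelled tissue was present in each. The part of these other tissues in the members' values was not tested.

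The genes whose ratios were most like the median of the members were in none of the muscle lists. The median pair of log2 ratios was -0.21 (OVA+PM10 over control) and -1.58 (PM10 over control), and the distance to it was measured over these 2 ratios among 10336 genes with at least 5 FPKM in any library. The 10 nearest were Aox1, Cep350, Tbc1d20, Setd5, Golga3, Slc25a36, Abca3, Ranbp2, Zfp46 and Fem1c, at distances of 0.032 to 0.093. Their longest annotated transcripts run from 3496 bases (Tbc1d20) to 13307 bases (Cep350), whereas that of Myl7, the member that sets the second of these medians, has 590 bases. Abca3, the lipid transporter of surfactant-storing alveolar cells, had 37.6 FPKM after OVA+PM10, 14.3 FPKM after PM10 and 42.3 FPKM in control lung. On the deposited FPKM its values over the 3 libraries keep nearly the proportions of those of Myl7. This follows from its choice by nearness to a median that Myl7 sets in part, and is no further result. The longest transcript of Abca3 has 6476 bases, and with the length trend removed the PM10 over control log2 ratio of Myl7 was -2.91.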

How the data were processed

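RNA of lung homogenates was measured in 3 libraries, assigned to groups by their labels, with 1 library per group. Per the labels' protocols, Trizol was used to extract RNA and the library kit preserved strand. The deposited values are FPKM, a unit inferred here from the values, since no file header names it: in genes with 1 annotated transcript, the lowest values fall as transcript length grows. Per the submitters' processing notes, TopHat and mm10 were used. Not given in the sources used here are the counting program, the annotation, the use of strand and what was done with reads of several possible origins.

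Log2 ratios of FPKM + 1 were computed for the 3 pairs of libraries with Python 3.11.15 and pandas 2.3.3. No test, p-value or left-out replicate was possible with 1 library per group. Reads were approximated from FPKM, transcript length and the value of 1 read, and carry no interval, because the lengths behind the deposited values are not given. Coordinates and lengths came from GENCODE M21 (GRCm38, which is mm10), with 95.5% of genes found by symbol. The code was tested on simulated data. The members and the 17 other gene lists were chosen with earlier results of these data known. Named were all members, their counterparts, up to 4 genes per list (the highest, then those with the largest ratios to control) and the 10 genes nearest to the members' median. Of these, 1 gene is not reported here. Irx4, Kcne1, Hey2, Myl9, Nkx2-5, Rag1, Rag2, Tnnc1, Atp2a2 and Corin were named outside the rule, with their values already seen. Alternatives were other pseudocounts, filters, thresholds and scalings, and removal of the trend over transcript length.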

Additional observations from a re-analysis of the deposited data

How the results depend on the processing

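Across 216 recomputed ratios of single members (27 ratios under 8 alternatives: 2 pseudocounts, no filter, a filter at 5 FPKM, a 4-fold threshold, 2 scalings and removal of the length trend), 204 kept their side of the size rule, 8 came to pass it, 4 no longer passed it at 4-fold, and 0 of those called changed sign. The 2 filter settings leave every ratio as it was, so all 27 ratios under each were the same by construction. The 4-fold threshold could change a call but no sign. These 3 alternatives therefore say nothing about the stability of the ratios. At the 4-fold threshold, 3 members were lower after PM10 than in control lung and 1 was higher after OVA+PM10 than after PM10. With the same summed FPKM, 5 members were higher after OVA+PM10 than after PM10, with a median log2 ratio of 1.12. The members' medians against control were -0.85 (OVA+PM10) and -2.80 (PM10) with equal sums and -0.89 and -2.64 with the length trend removed. The trend-removed medians include Tnnt2 and Myl4 at the length of their longest transcript of any type and not of their longest coding one. Over all genes, the counts higher and lower were 617 and 3459 (OVA+PM10 over control), 249 and 7226 (PM10 over control) and 3211 and 321 (OVA+PM10 over PM10) with equal sums, 207 and 276, 303 and 525, and 290 and 111 at 4-fold, and 694 and 524, 1267 and 749, and 476 and 668 with a pseudocount of 5 FPKM. Members called neither higher nor lower changed sign in 4 cases: Actc1 (OVA+PM10 over control, -0.32 with the same sum and -0.09 with the length trend removed), Mybpc3 (OVA+PM10 over control, 0.03 with the trend removed), Nppa (OVA+PM10 over PM10, 0.47 with the trend removed) and Myh6 (OVA+PM10 over PM10, 0.05 with the same sum). The cause was not tested. Tnni3 passed the rule after OVA+PM10 against control with the same sum (-1.30) and with the trend removed (-1.28). It also passed it after OVA+PM10 against PM10 under the same alternatives (1.40 and 1.44). Tnnt2 and Myl4 passed it after PM10 against control and after OVA+PM10 against PM10 with the same sum, by the values given beside them. Leaving Actc1 out of the summed level moved no member's share by more than 1.5 times. With Actc1 at 16.2% of that level or less in each library, this limit could not be reached, so nothing follows from it. Depth limits Nppa in both exposed libraries and Mybpc3 in all 3. No paired analysis was possible because each group had 1 library.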
